A study of Mus musculus with 10 samples.

Results

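Astrocytes clear glutamate from the synaptic cleft, convert it to glutamine and hold potassium and water in balance through channels and junctions on their processes. In the glutamate-glutamine cycle, transporters at the astrocyte surface take glutamate up, glutamine synthetase amidates it, and glutamine is passed back to neurons. The same cells are recognised in hippocampal tissue by a set of channel, junction and enzyme genes that neurons express little or not at all.

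The genes described here are 10 of the 53379 genes in the count files. They were chosen by symbol, and their choice rests on measured values: they were selected on their low counts in the neutral libraries compared with the mock, aversive and appetitive libraries. Each of those comparisons is therefore given as a description, and nothing is read from what a test calls in it. The genes are the glutamate transporters Slc1a2 and Slc1a3 and glutamine synthetase Glul, the water channel Aqp4, the gap junction protein Gja1 and the claudin Cldn10, the glycolytic enzyme Aldoc and the ethanolamine-phosphate phospho-lyase Etnppl, and Luzp2 and the tissue factor F3. All 10 passed the filter on low counts and were tested.

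RNA-seq was performed on sorted material from the microdissected hippocampal regions of 5 week old male mice, called nuclei in the study's results and cells in its methods. In the tagged groups a c-Fos promoter drove a doxycycline-controlled transactivator that switched on ChR2-EYFP, so that cells active during an experience were labeled and sorted by their EYFP. There were 2 aversive libraries (labeled neg, 4 foot shocks of 1.5 mA and 2 s), 2 appetitive libraries (pos, exposure to a female for 1 h by the labels and for longer by the study's methods), 3 neutral libraries (neu, the conditioning cage with neither stimulus) and 3 mock libraries (mock, males in the home cage). The labels give 8 mice pooled per condition, while the study's statistics section describes mock as an untagged control from fewer mice than there are mock libraries, and no source says whether each library had a pool of its own, so p-values measure only the spread between these libraries, which may be technical. The neutral libraries were prepared with another version of the low-input kit and sequenced at 100 bp, against 40 bp for the rest, so kit, sequencing and the neutral experience cannot be told apart.

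Total counts ranged from 16968588 to 67650693 per library, and 3 counts, the smallest level taken as measurable, stood for 0.0347 to 0.235 CPM (normalized counts per 1e6 reads, scaled by TMM). Genes with any count numbered 14144 and 14658 in the appetitive libraries and 16849 to 30899 in the others. Markers of other cells were present in every group. The summed level of 9 oligodendrocyte genes ranged from 26508 to 805500 CPM in the mock, aversive and appetitive libraries and from 7555 to 36634 CPM in the neutral ones. Mbp alone reached 642740 CPM in appetitive 1. The 13 neuronal genes summed to 294 to 478 CPM in mock, 718 to 858 CPM in aversive, 196 to 1312 CPM in appetitive and 89.1 to 140 CPM in neutral libraries. Single genes of that list differed widely. Neurod6 stayed at or below 7.25 CPM in every library. Snap25 reached 577 CPM in appetitive 1 and 422 CPM in aversive 1, and Nrgn 515 CPM and 209 CPM. In bulk samples, fewer astrocytes and less RNA per astrocyte cannot be told apart.

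Promoter sequence was taken from RefSeq (GRCm38.p6) for 9 of the 10 genes, Aqp4 having no entry in the table used. The 250 bases before the annotated start are shown for Slc1a3, a transporter that was low in the neutral libraries, for Glul, whose neutral libraries reached the range of the others, and for Luzp2, the lowest in the appetitive libraries relative to the aversive and mock ones. Capitals mark the letters TTGGC, a recognition site of nuclear factor I, or ACAAT, the core of SOX sites, on either strand. They lie at chr15:8710808-8711057 on the minus strand, chr1:153899679-153899928 on the plus strand and chr7:54834995-54835244 on the plus strand.
Slc1a3: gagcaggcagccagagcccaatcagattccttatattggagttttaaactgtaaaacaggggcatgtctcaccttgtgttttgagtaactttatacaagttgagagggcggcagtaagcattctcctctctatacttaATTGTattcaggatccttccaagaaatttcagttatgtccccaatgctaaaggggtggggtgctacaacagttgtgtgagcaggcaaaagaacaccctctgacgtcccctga
Glul: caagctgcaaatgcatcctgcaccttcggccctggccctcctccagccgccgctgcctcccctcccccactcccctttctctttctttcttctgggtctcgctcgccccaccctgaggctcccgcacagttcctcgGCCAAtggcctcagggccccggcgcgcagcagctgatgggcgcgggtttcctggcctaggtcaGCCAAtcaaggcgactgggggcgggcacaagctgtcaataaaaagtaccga
Luzp2: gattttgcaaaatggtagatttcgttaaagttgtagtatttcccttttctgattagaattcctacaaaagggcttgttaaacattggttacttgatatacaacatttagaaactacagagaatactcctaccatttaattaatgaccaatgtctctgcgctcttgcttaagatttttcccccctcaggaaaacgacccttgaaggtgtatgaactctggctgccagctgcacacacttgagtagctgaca

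The Glul window held 2 matches to TTGGC on the strand opposite the gene, ending 110 and 47 bases before the start, and the Luzp2 window held no match to any of the 5 motifs searched. Slc1a3 held 1 match to ACAAT, 112 to 108 bases before the start. On both strands and counting any overlap, TTGGC was found in 4 of the 12 windows of the 9 genes. Over all genes it was found in 41.5% of 32851 windows. ACAAT was found in 2 of the 12 windows (27.7% of all windows) and the STAT element TTCNNNGAA in 2 (7.0%). TATAAA was found in 1 (12.4%) and the GC box GGGCGG in 6 (32.7%). GC content was 64.8% in the Glul window, 44.8% in that of Slc1a3 and 38.4% in that of Luzp2. A match is a description of the letters. A pair of windows was listed for 3 of the 9 genes, and the window of Slc1a2 lies at an internal start of that gene.

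Of the glutamate genes, the transporters were abundant in mock, aversive and appetitive libraries and low in neutral ones, and Glul was the only one of the 3 whose neutral libraries overlapped mock. Slc1a2 encodes GLT-1, the main glutamate transporter of forebrain astrocytes (chr2:102658659-102790784, plus strand). It was at 1395, 525 and 577 CPM in mock, 1167 and 2105 CPM in aversive, 765 and 803 CPM in appetitive and 2.71, 6.31 and 17.9 CPM in neutral libraries. The aversive libraries held the highest value and the neutral ones did not overlap any other group. Part of its exons is shared with Gm13872 on the other strand, and reads of the pair were counted without regard to strand.

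Slc1a3 encodes GLAST, the transporter also prominent in radial glia (chr15:8634124-8710764, minus strand). Its level was 4025, 1292 and 1490.5 CPM in mock, 1190.2 and 2097 CPM in aversive, 448 and 979 CPM in appetitive and 18.1, 89.0 and 41.5 CPM in neutral libraries. Both appetitive libraries lay below every mock and aversive library. Neutral libraries held 2.31 to 14.1 Slc1a3 counts for each Slc1a2 count.

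Glul encodes the enzyme that turns glutamate and ammonia into glutamine (chr1:153899944-153909723, plus strand). It stood at 462, 352 and 271 CPM in mock, 394 and 500.2 CPM in aversive, 476 and 503 CPM in appetitive and 153, 454 and 135 CPM in neutral libraries. Neutral 2 fell within the range of the mock and aversive libraries, and neutral 1 and neutral 3 lay below every other library. Of the 10 genes, Glul was the exception in that its neutral and mock ranges overlapped. Its exons overlap those of Teddm2 on the other strand and the microRNA gene Mir8114, and oligodendrocytes also express it.

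**Figure D1:**
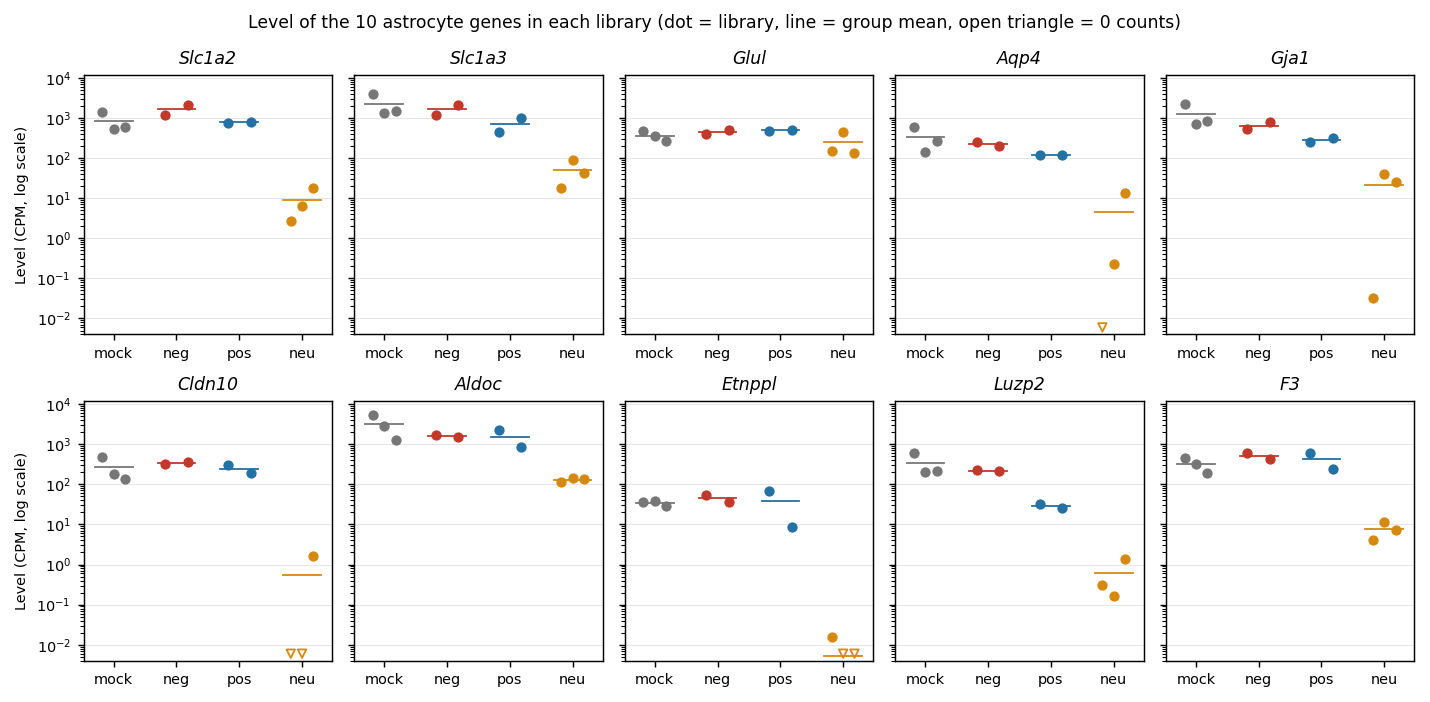
Level of each of the 10 genes in the 10 libraries, in CPM on a log axis, by group (mock, neg for aversive, pos for appetitive, neu for neutral). Dots are libraries, lines are group means and open triangles at the bottom are libraries with 0 counts. In 9 of the 10 panels the neutral libraries lie below every other library, and these values chose the genes. Of all tested genes, 15.9% had every neutral library below every mock library. The neutral libraries of Glul (135 to 454 CPM) reach the range of the mock libraries (271 to 462 CPM).

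Among the channels and junctions, levels in the 3 neutral libraries spread over several orders of magnitude. Aqp4, the water channel of astrocyte endfeet (chr18:15389496-15410982, minus strand), was at 583, 142 and 258 CPM in mock, 245 and 195 CPM in aversive and 117 and 116 CPM in appetitive libraries. In the neutral libraries it had 0, 20 and 1036 counts. Neutral 3 therefore supplied nearly all of the group's Aqp4, at 13.3 CPM.

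Gja1 encodes connexin 43, the main gap junction protein of astrocytes (chr10:56377330-56402513, plus strand), and was at 2155, 714 and 836 CPM in mock, 513 and 768 CPM in aversive and 256 and 313 CPM in appetitive libraries. Neutral libraries had 2, 3398 and 1992 counts, or 0.0316, 39.2 and 25.6 CPM. The neutral 1 library was nearly without Gja1 and the appetitive pair lay below every mock and aversive library.

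Cldn10, a tight junction claudin found in hippocampal astrocytes (chr14:118787908-118875489, plus strand), reached 476, 183 and 132 CPM in mock, 323 and 349 CPM in aversive and 307 and 187 CPM in appetitive libraries. Neutral 1 and neutral 2 had 0 counts, which allows levels of up to 0.0473 and 0.0347 CPM, and neutral 3 had 130 counts, or 1.67 CPM. These limits and all counts cover counting error only.

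Of the metabolic enzymes, Aldoc, the brain aldolase (chr11:78322968-78327781, plus strand), was the most abundant of the 10 genes per kilobase of exon outside the neutral group. It was measured at 5349, 2833 and 1279 CPM in mock, 1678 and 1493 CPM in aversive, 2235 and 860.3 CPM in appetitive and 114, 141 and 136 CPM in neutral libraries. The 3 neutral libraries agreed closely for Aldoc, whereas the mock libraries differed by several fold. Etnppl, which degrades phosphoethanolamine (chr3:130617448-130637521, plus strand), had the lowest mean per kilobase of the 10 in each group. Its level was 36.8, 38.2 and 28.2 CPM in mock, 53.8 and 36.7 CPM in aversive and 68.7 and 8.49 CPM in appetitive libraries. It had 1, 0 and 0 counts in the neutral libraries, and no fold is given against them.

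Luzp2, a leucine zipper protein (chr7:54835498-55268885, plus strand), had the smallest p-value of the 10 in both tested comparisons with appetitive libraries. It was at 599, 205 and 218 CPM in mock, 229 and 211 CPM in aversive, 31.7 and 26.2 CPM in appetitive and 0.316, 0.162 and 1.39 CPM in neutral libraries. The highest appetitive library was well below the lowest mock library, and the neutral libraries were lower again. F3, the tissue factor that starts coagulation (chr3:121723537-121735048, plus strand), was at 457, 319 and 193 CPM in mock, 588 and 415 CPM in aversive, 612 and 237 CPM in appetitive and 4.18, 11.4 and 7.36 CPM in neutral libraries. Its mock, aversive and appetitive ranges overlapped.

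By group mean per kilobase of exon, Aldoc was first and Etnppl last in mock, aversive and appetitive libraries. In appetitive 1, however, Luzp2 was last at 5.64 CPM per kb, below Etnppl at 8.31 CPM per kb. The genes between first and last place changed places. Slc1a3 was behind Aldoc in mock and behind F3, Glul and Cldn10 as well in appetitive libraries. Aldoc stood at 966 ± 629 CPM per kb (SD, n = 3) in mock, 486 ± 40.1 (SD, n = 2) in aversive and 474 ± 298 (SD, n = 2) in appetitive libraries, and Etnppl at 4.17 ± 0.654, 5.48 ± 1.46 and 4.67 ± 5.15 CPM per kb. In mock, 8 of the 9 pairs of neighbors in the order overlapped over libraries, and only Aqp4 and Etnppl did not. In aversive libraries 5 of 9 pairs overlapped and in appetitive libraries 4 of 9. Among neutral libraries Glul led at 74.5 ± 53.8 CPM per kb (SD, n = 3), followed by Aldoc at 39.9 ± 4.45, and these overlapped, while Aldoc and the next gene, Slc1a3 at 5.80 ± 4.23, did not.

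Whether the genes differed between the aversive and appetitive tags, which share kit and read length, was tested with edgeR's quasi-likelihood test on all 19754 genes passing the filter. This comparison and those of aversive or appetitive libraries with mock were not the ones that chose the genes. They share libraries with the choosing comparisons and so are not independent of the choice. No gene of the 10 was called at an adjusted p under 0.05 between appetitive and aversive, where 1.80% of all tested genes were called. At an unadjusted p under 0.05 there was 1 of 10, against 20.0% of all genes, and DESeq2 called 0 of 10, against 24.0% of all genes it tested. The median log2 fold change of the 10 genes was -0.68, beside -0.48 over all tested genes, and 9 of 10 values were below 0 (8 with DESeq2's size factors, 10 with library size alone). The appetitive libraries lay wholly below the aversive ones for 6 genes (Slc1a2, Slc1a3, Aqp4, Gja1, Cldn10 and Luzp2), a pattern seen in 20.1% of all tested genes.

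Luzp2 was the 1 gene with an unadjusted p under 0.05, with means of 28.96 CPM in appetitive and 220.02 CPM in aversive libraries. Its log2 fold change was -2.93 (SE 1.06, edgeR adjusted p = 0.172). The transporter Slc1a3 differed by -1.20 on the log2 scale (SE 0.850, edgeR adjusted p = 0.485), and Slc1a2 by -1.06 (SE 0.863, adjusted p = 0.571). Neither passed the threshold, and the SEs were almost as large as the differences. Glul differed by 0.13 (SE 0.710), or by -0.224 with library size alone, and Aldoc by -0.03 (SE 0.705), or by 0.155 with DESeq2's size factors.

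In the comparison of aversive with mock libraries, edgeR called 0 of the 10 genes and 0 of all tested genes, 0% in the background. At an unadjusted p under 0.05 it found 0 of 10 genes and 9.96% of all genes, and DESeq2 called 0 of 10 genes and 1442 genes in all, or 7.95%. The aversive and mock ranges overlapped for each of the 10 genes, while 36.1% of all tested genes did not overlap. Of the 10, 5 were higher and 5 lower, with a median log2 fold change of -0.08 beside -0.13 for all genes. Aldoc gave the lowest value, at -0.99 (SE 0.664, edgeR adjusted p = 0.605), and Slc1a2 the highest, at 0.98 (SE 0.769, adjusted p = 0.667). Leaving out mock 1, the mock library with the highest level of 9 of the 10 genes, turned the sign of Aqp4 to 0.154, of Luzp2 to 0.066 and of Slc1a3 to 0.244.

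In the appetitive against mock comparison, edgeR again called 0 of 10 genes, where 1.98% of all tested genes were called. One gene of the 10 had an unadjusted p under 0.05, against 23.8% of all genes, and DESeq2 called 1 of 10, against 25.7% of all genes it tested. That gene was Luzp2 in both tools, with means of 28.96 CPM in appetitive and 340 CPM in mock libraries, a log2 fold change of -3.56 (SE 1.05) and an edgeR adjusted p of 0.0947, which ranged from 0.0151 to 0.221 over the 18 alternatives. Gja1 differed by -2.12 (SE 1.56, edgeR adjusted p = 0.391), and Slc1a3 by -1.67 (SE 0.813, adjusted p = 0.231). The appetitive libraries lay wholly below mock for 4 genes (Slc1a3, Aqp4, Gja1 and Luzp2), beside 38.9% of all tested genes, and wholly above it for Glul, beside 9.78%. The median of the 10 genes was -0.56, and that of all tested genes was -1.45.

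**Figure D2:**
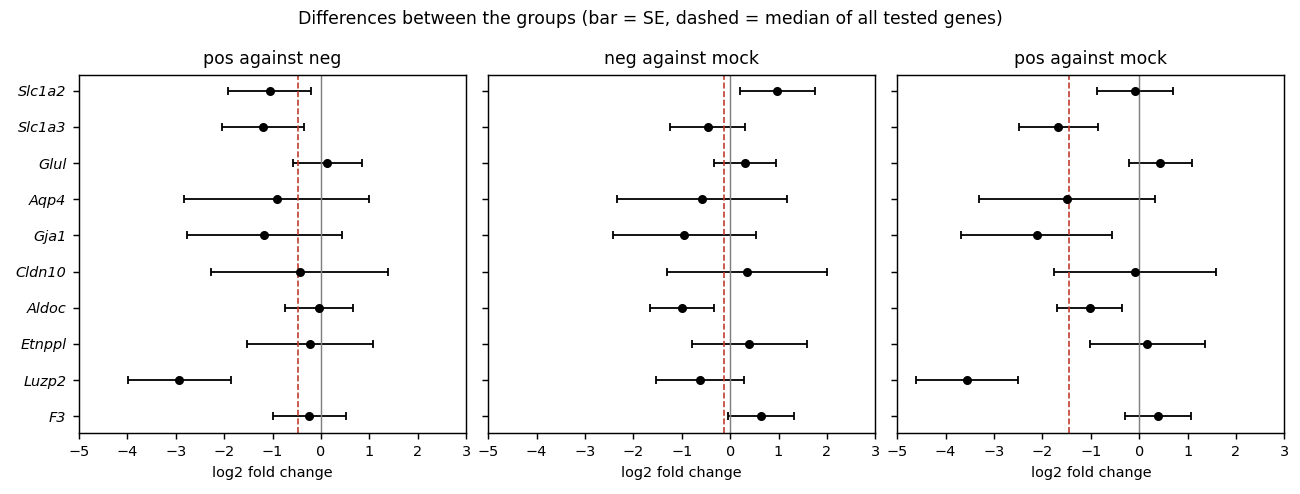
Log2 fold change of each gene, with its SE, for appetitive (pos) against aversive (neg), aversive against mock, and appetitive against mock libraries. The dashed line is the median of all tested genes. Luzp2 has the lowest value in both panels with appetitive libraries, at -2.93 and -3.56.

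Scaling shifts these comparisons as a whole. Against TMM, DESeq2's size factors moved the median of all tested genes by 0.11 in appetitive against aversive, 0.12 in aversive against mock and 0.25 in appetitive against mock, and library size alone moved it by -0.19, -0.07 and -0.26. The number of the 10 genes that were higher in appetitive than in aversive libraries was 1 with TMM, 2 with size factors and 0 with library size alone. In appetitive against mock it was 3, 5 and 1.

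The proportions among the 10 genes do not depend on scaling. Luzp2 supplied 3.85, 3.10 and 4.12% of their summed counts in mock, 3.59 and 2.58% in aversive and 0.596 and 0.651% in appetitive libraries. Slc1a2 supplied 8.98, 7.94 and 10.9% in mock, 18.3 and 25.8% in aversive and 14.4 and 19.9% in appetitive libraries, so that neither tagged group overlapped mock. Gja1 went the other way, with 13.9, 10.8 and 15.8% in mock, 8.04 and 9.40% in aversive and 4.81 and 7.76% in appetitive libraries. The shares of Glul, Cldn10 and F3 also lay wholly above mock in both tagged groups. For Luzp2, Slc1a3, Aqp4, Aldoc and Etnppl a tagged group overlapped mock. The shares printed here were chosen after their values were seen.

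For each count of Slc1a2 there were 2.89, 2.46 and 2.58 counts of Slc1a3 in mock, 1.02 and 0.996 in aversive and 0.586 and 1.22 in appetitive libraries. Gja1 had 1.55, 1.36 and 1.45 counts per Slc1a2 count in mock, 0.439 and 0.365 in aversive and 0.335 and 0.390 in appetitive libraries. Both ratios separated the mock libraries from the 4 aversive and appetitive libraries and did not separate aversive from appetitive ones. These ratios were chosen after their values were seen and were not tested. For the aversive or the appetitive group alone against mock, 2 against 3 libraries, an exact permutation on both sides allows no p below 0.1.

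**Figure D3:**
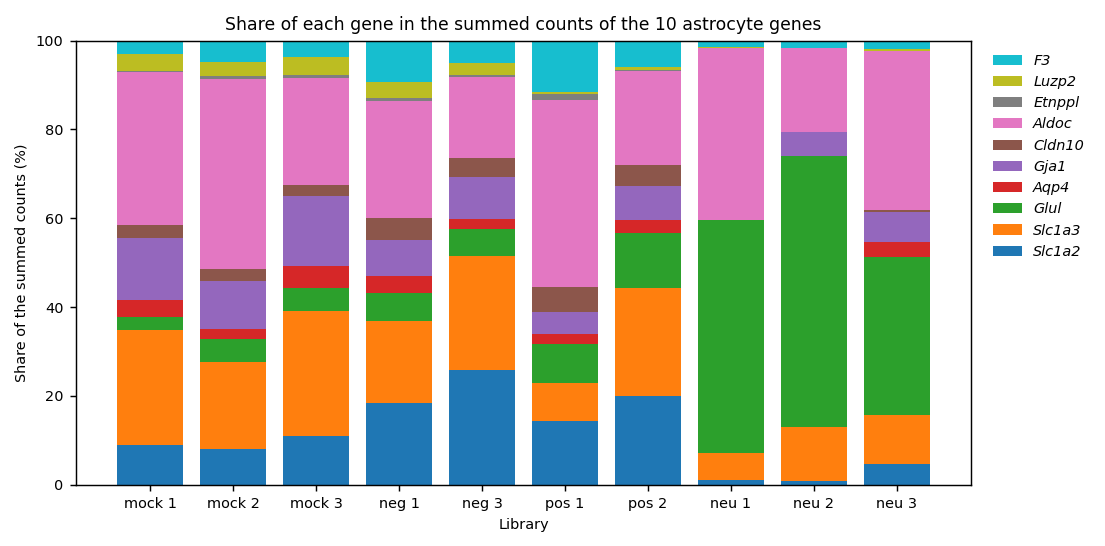
Share of each gene, in percent, in the summed counts of the 10 genes in each library (pos for appetitive, neg for aversive, neu for neutral). Glul takes 35.6 to 61.2% in the neutral libraries and 2.97 to 12.5% in the others, and Slc1a2 takes 7.94 to 10.9% in mock and 14.4 to 25.8% in aversive and appetitive libraries.

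The neutral libraries chose the genes, and their values follow as a description. Together the 10 genes made up 0.0309 to 0.0948% of all counts in neutral libraries and 0.255 to 1.34% in the others, or 293 to 741 CPM against 4032 to 15535 CPM. The median log2 difference of the 10 genes was 5.82 for aversive against neutral, 5.11 for appetitive against neutral and -6.01 for neutral against mock. Glul stood apart at 0.85, 0.98 and -0.55. The calls of the edgeR fit in these comparisons were made on the values that chose the genes and are no test of them. They numbered 4 of 10 for aversive above neutral (0.0405% of all genes), 7 for appetitive above neutral (0.937%) and 6 for neutral below mock (0.0810%).

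Other marker lists did not share a direction between the neutral and the other libraries. In the neutral libraries the 5 choroid plexus genes summed to 21190 to 130850 CPM, and Ttr alone reached 128860 CPM. The list summed to 1118 to 3503 CPM in mock, 7055.5 to 13707 CPM in aversive and 942 to 2915 CPM in appetitive libraries. The 10 microglial genes summed to 42.1 to 480 CPM in neutral and 1348 to 11377 CPM in the other libraries. The endothelial list ranged from 178 to 4965 CPM in neutral and from 510 to 7042 CPM elsewhere. The neural stem and progenitor list summed to 166 to 198 CPM in neutral and 489 to 2554 CPM in the other libraries, and the oligodendrocyte precursor list to 64.8 to 478 CPM and 279 to 827 CPM. The mural list gave 573 to 5789 CPM in neutral and 191 to 1041 CPM elsewhere, and the ependymal list 174 to 295 CPM and 0.0782 to 299 CPM. The part of these cells in the low astrocyte genes of the neutral libraries was not tested.

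**Figure D4:**
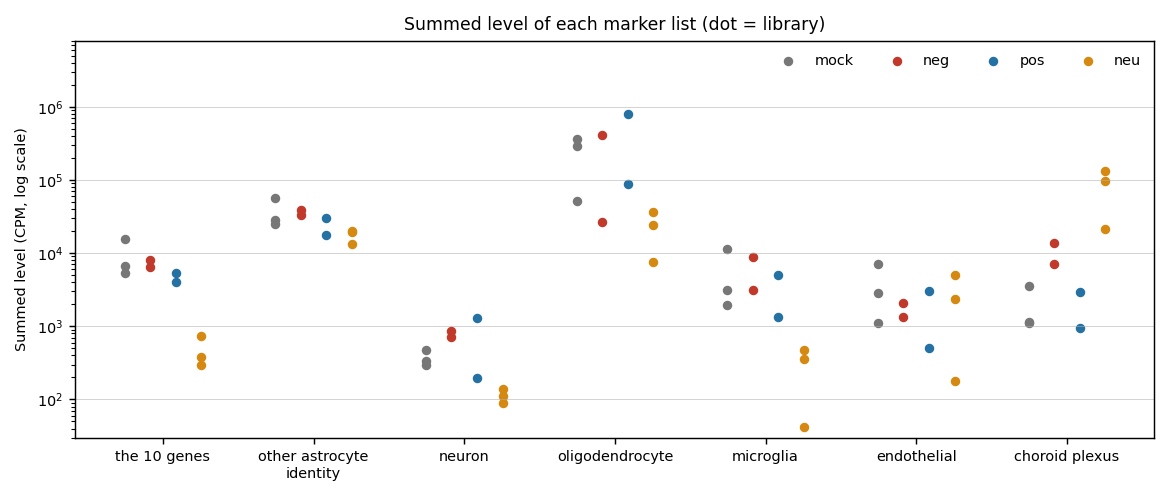
Summed level of the 10 genes and of 6 marker lists in each library, in CPM on a log axis (mock, neg for aversive, pos for appetitive, neu for neutral). In neutral libraries the 10 genes sum to 293 to 741 CPM and the choroid plexus list to 21190 to 130850 CPM.

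A list of 50 other astrocyte identity genes behaved unevenly in the neutral libraries. Their sum was 13273 to 19908 CPM there and 24921 to 56521 CPM in mock, and Apoe, Clu and Cst3, which other glia and the choroid plexus also express, supplied 65.5% of the neutral mean. For 37 of the 50 genes every neutral library lay below every mock library, for 13 the ranges overlapped, and for none were the neutral libraries all higher, while 15.9% of all tested genes had every neutral library below every mock library. Gfap, the astrocyte intermediate filament, was at 776, 284 and 170.01 CPM in mock and 15.8, 56.8 and 23.9 CPM in neutral libraries. Aldh1l1, the folate enzyme used as a pan-astrocyte marker, was at 276, 63.96 and 93.3 CPM in mock and 15.8, 12.2 and 11.5 CPM in neutral libraries. S100b, a calcium-binding protein, had 848, 1176 and 190.3 CPM in mock and 29.2, 29.1 and 19.1 CPM in neutral libraries. The other way, 3 of the 50 (Slc7a10, Sox9 and the metallothionein Mt3) had a neutral mean above the mock mean. Slc7a10, an amino acid transporter of astrocytes, was at 273, 76.6 and 115 CPM in mock and 1314, 176 and 1056 CPM in neutral libraries, and Sox9, a glial transcription factor, at 170.02, 70.8 and 123 CPM and 273, 96.5 and 192 CPM.

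In the 3 tested comparisons none of these 50 genes was called by edgeR. Their median log2 fold changes were -0.77 for appetitive against aversive, -0.37 for aversive against mock and -1.14 for appetitive against mock libraries. Over all tested genes the medians were -0.48, -0.13 and -1.45. Gfap varied within the appetitive group from 1.05 to 962 CPM and in the aversive one from 69.7 to 304 CPM. The 16 other genes of the glutamate-glutamine cycle likewise gave 0 calls. Their medians were -1.01, -0.70 and -3.66. As a description, these 16 genes summed to 874 to 970 CPM in neutral libraries and 980 to 1109 CPM in mock. Their sums were 560 to 987 CPM in aversive and 683 to 928 CPM in appetitive libraries. By log2 fold change, 7 of the 16 were higher and 9 lower in neutral than in mock libraries. Slc38a3, the astrocyte glutamine exporter, differed by -0.23 (SE 0.917) between appetitive and aversive libraries. It was at 591, 145 and 427 CPM in neutral and 246, 176 and 199.5 CPM in mock libraries. Between appetitive and aversive, Slc1a1, the neuronal transporter, differed by -6.09 (SE 2.77, edgeR adjusted p = 0.251). Slc38a1, a glutamine importer of neurons, differed by -3.69 (SE 1.95, edgeR adjusted p = 0.316). Slc1a1 had 0 and 3 counts in appetitive and 2 and 584 counts in aversive libraries. Slc38a1 had 4 and 65 counts in appetitive and 11 and 2374 counts in aversive libraries. Aversive 3 held nearly all aversive counts of both genes. The 14 reactive astrocyte genes also gave 0 calls, with medians of -1.26, -1.03 and -5.37. Vim, an intermediate filament, differed by -1.72 (SE 1.44) between appetitive and aversive libraries. Serpina3n, a protease inhibitor, differed by -9.03 (SE 3.95, edgeR adjusted p = 0.239). It had 2 and 0 counts in appetitive and 79 and 3708 counts in aversive libraries, nearly all of the latter in aversive 3. The fitted values of Slc1a1 and Serpina3n therefore depend on the prior count and set no bound.

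Of the 14 potassium, water and junction partners, 2 were called lower in appetitive libraries. Of all tested genes, 1.69% were called lower against aversive and 1.96% against mock. All 14 had log2 fold changes below 0 against aversive and 13 against mock. The list's medians were -1.33, -0.70 and -1.77 in the 3 comparisons, beside -0.48, -0.13 and -1.45 for all tested genes. Kcnj16, an inward rectifier that pairs with Kcnj10, was at 185, 57.4 and 53.4 CPM in mock, 36.2 and 34.99 CPM in aversive and 0.156 and 0.0524 CPM in appetitive libraries. Its log2 fold change was -8.43 against aversive (SE 1.84, edgeR adjusted p = 0.0471) and -9.90 against mock (SE 1.93, adjusted p = 0.0354). Kcnj10, its partner and the main potassium channel of astrocytes, was at 2.27 and 82.6 CPM in appetitive libraries and was not called (-1.52, SE 1.60). Trpv4, a calcium-permeable channel, was called at -6.60 (SE 1.30, adjusted p = 0.0361) and -8.59 (SE 1.37, adjusted p = 0.0318), with 0 and 0.105 CPM in appetitive and 4.85 and 7.03 CPM in aversive libraries. Kcnj16 rested on 2 and 1 counts and Trpv4 on 0 and 2 counts in the appetitive libraries, so the fitted values depend on the prior count and set no bound. Trpv4 reached 147 to 582 CPM in the neutral libraries, where the choroid plexus genes were also high. Of the other marker lists, 1 gene was called, the endothelial receptor Tek (-8.62 against aversive, SE 1.72, edgeR adjusted p = 0.0370, and -8.55 against mock, SE 1.70, adjusted p = 0.0363). These 6 calls were 0 without any 1 of the mock or neutral libraries, 13 without aversive 1, 10 without appetitive 1 and 28 without appetitive 2.

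By the root mean square difference of centred log2 CPM over the 10 libraries, genes near to the mean of the 10 included Fabp7 (0.66), Scg3 (0.70), Ntsr2 (0.74) and Cyp2j9 (1.02). The 10 genes themselves lay between 0.52 for Slc1a2 and 2.77 for Glul. Fabp7, a fatty acid binding protein of astrocytes and radial glia, had 218, 89.6 and 68.3 CPM in mock and 0.0789, 0.462 and 4.45 CPM in neutral libraries. Ntsr2, a neurotensin receptor, had 1076, 475 and 362 CPM in mock, 1017 and 866 CPM in aversive, 574 and 767 CPM in appetitive and 3.23, 26.1 and 10.97 CPM in neutral libraries, and it was also the gene nearest to Slc1a2. Nearest to Glul were Clcn4 (0.35), Rtl8b (0.35) and Mid1ip1 (0.38). The points share the libraries and their scaling. They include the neutral libraries, whose low values chose the genes, so nearness to the mean of the 10 depends in part on low neutral levels. This ranking is a description.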

How the data were processed

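RNA-seq was analysed from the counts per Ensembl gene that the authors deposited for 10 libraries. Per the labels and the study's methods, reads were cut to 40 bp, aligned by the authors with STAR to mm10 (GRCm38), and assigned to genes with featureCounts (Subread) without using strand. Gene positions came from GENCODE M21, which matched 53274 of 53379 identifiers. In R 4.3.3, edgeR 4.0.16 fitted 1 quasi-likelihood model with 4 groups to the 10 libraries after TMM scaling (factors 0.480 to 1.45) and filterByExpr, with a common dispersion of 1.49. P-values are two-sided, adjusted by the Benjamini-Hochberg method over the 19754 tested genes, with a threshold of 0.05. SEs were derived from the F statistics. The fits were tested on simulated data with 64-fold changes. They called 11 of 200 changed genes for appetitive against aversive, 46 of 200 for aversive against mock and 39 of 198 for appetitive against mock. A gene that was not called may therefore still differ.

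The 10 genes, the marker lists and the tests were chosen with earlier results of these data known. Genes named beyond the 10 were the first 3 of each list of astrocyte genes, genes with an adjusted p under 0.05 in a tested comparison, and the nearest genes by centred log2 CPM (prior count 2). One of the nearest genes is not reported here. Others, among them Mbp, Neurod6, Snap25, Nrgn, Ttr, Apoe, Clu, Cst3, Slc7a10, Sox9, Mt3 and Kcnj10, were named after their values were seen. Alternatives were DESeq2 1.42.0, other scalings and filters, a replicate block, the compared groups alone, and leaving out each library. Python 3.11.15 and matplotlib 3.10.9 drew the figures.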

Additional observations from a re-analysis of the deposited data

How the results depend on the processing

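No gene of the 10 was called in any of the 18 alternatives for appetitive against aversive or for aversive against mock, but only 10 and 2 of these, in that order, called any gene at all, so the others say nothing of stability. For appetitive against mock 1 gene (Luzp2) was called with DESeq2 (4658 of 18140 genes in all), with no filter (1124 of 35266) and with the compared groups alone (3585 of 16471). It was 0 in the other 15 alternatives, 8 of which called no gene at all. Counts in the comparisons with neutral libraries, which chose the genes, test nothing and are given for completeness. From 4 for aversive the count went to 9 with DESeq2 (3334 of 21243 genes in all) and with no filter (863 of 35266), to 0 with the compared groups alone, and to between 0 and 6 with each library left out. From 6 for neutral against mock it went to 0 with the compared groups alone, and to between 0 and 6 with each library left out. From 7 for appetitive it went to 4 with at least 10 counts in every library, where fewer of the 10 were tested, to 0 with the compared groups alone, and to between 3 and 7 with each library left out. The 6 calls in other lists became 48 with DESeq2, 41 with no filter, 0 with at least 10 counts in every library, 21 with the compared groups alone, 0 on the 7 libraries without neutral, and between 0 and 28 with each library left out.

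Deviations from the group means correlated at -0.037 to 0.164 between samples of one replicate number. Samples of unlike number were not compared in this way, so whether the numbers mark a shared batch was not tested. With the replicate number as a block, the calls were 0, 0 and 3 of 10 for aversive against neutral, neutral against mock and appetitive against neutral, and 0 in the other lists. In appetitive against aversive the block turned Aqp4 to 0.503, Cldn10 to 1.015 and Glul to -0.311. In appetitive against mock it turned Cldn10 to 0.285, Etnppl to -0.620 and Slc1a2 to 0.132, and in aversive against mock Cldn10 to -0.730 and Etnppl to -0.038.

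Other signs turned, all for values not past the threshold. In appetitive against aversive, Aldoc became 0.156 with DESeq2 and 0.155 with its size factors, and Glul became -0.224 with library size alone and -0.298 with at least 10 counts. In appetitive against mock, Cldn10 became 0.152 and 0.157 and Slc1a2 0.154 and 0.158 with DESeq2 and its size factors, Etnppl became -0.766 and F3 -0.210 with library size alone, and F3 became -0.160 and Glul -0.049 with at least 10 counts.
With each library left out in turn, the log2 fold changes whose sign turned ranged as follows. In appetitive against aversive they ran, for Aldoc -1.030 to 0.363, for Etnppl -2.566 to 0.466, for F3 -1.232 to 0.152, for Glul -0.140 to 0.307. In aversive against mock they ran, for Aqp4 -0.990 to 0.154, for Etnppl -0.007 to 0.640, for Luzp2 -0.953 to 0.066, for Slc1a3 -0.935 to 0.244. In appetitive against mock they ran, for Cldn10 -0.740 to 0.489, for Etnppl -2.239 to 0.795, for F3 -0.680 to 0.707, for Slc1a2 -0.548 to 0.356. The causes were not tested.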
